A study of Danio rerio with 20 samples.

Results

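Sorted photoreceptors of the zebrafish embryo were compared with sorted retinal progenitors at 42 hours post fertilization (hpf). The comparison used 10 of the 20 RNA libraries in the data set, 5 of each population, and every Ensembl gene in the table of read counts that accompanied them. All embryos carried 3 transgenes. A red membrane-tethered protein was placed under ath5 (now named atoh7) regulatory sequence in Tg(ath5:gap-RFP), and a cyan protein reported crx in Tg(crx:gap-CFP). Yellow fluorescence reported ptf1a through Gal4 in Tg(ptf1a:gal4,UAS:gap-YFP). Photoreceptors were gated as ath5+,crx+,ptf1a- and progenitors as ath5-,crx-,ptf1a-. A progenitor was thus defined by the absence of all 3 reporters and not by a reporter of its own. The other 10 libraries, 5 of retinal ganglion cells (ath5+,crx-,ptf1a-) and 5 of amacrine and horizontal cells (ath5+,crx-,ptf1a+), entered the fit to share its estimate of spread and gave reference levels. Embryos were kept at 28 °C until 24 hpf, at 21 °C until 30 hpf and at 28 °C until 42 hpf, and were anaesthetised with MS-222. Each replicate pooled 25 retinas, and 500 cells per library were sorted for SmartSeq-2 amplification of polyadenylated RNA.

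The vertebrate retina is built from multipotent progenitors that divide at the apical surface, keep one another undifferentiated through Notch signalling, and leave the cycle in an overlapping order of fates. Photoreceptors arise from cells in which Otx2 switches on the homeobox gene crx. Nuclear receptors and other factors then select rod and cone subtypes, and only later do opsins and the outer segment appear. In the zebrafish retina, committed cone precursors can still divide. Mesenchyme of neural crest origin and blood vessels lie against the retina and can remain attached to it in a dissection.

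Total counts per library were 21.2 to 28.3 M (1e+06 counts) in photoreceptors and 22.4 to 30.6 M in progenitors, and 14070 to 17926 and 13604 to 17707 genes had at least 1 count. Levels are given as counts per 1e+06 of the scaled library total (CPM). Counts of mitochondrial genes took 3.93% of photoreceptor replicate 2, against 9.69 to 14.8% of the other 9 libraries. The summed level of a list of mesenchyme and neural crest genes was 461 to 749.5 CPM in progenitors and 8.86 to 27.1 CPM in photoreceptors. Globin genes summed to 7244, 10774 and 18793 CPM in progenitor replicates 1, 2 and 5 and to no more than 2.04 CPM in any other of the 10. Retinal ganglion cell genes summed to 1299 and 956 CPM in photoreceptor replicates 1 and 5, above the 278 to 717 CPM of the other 3 photoreceptor libraries. The same genes summed to 2381 to 7891 CPM in ganglion cells and 2993 to 8497 CPM in amacrine and horizontal cells, so the list does not mark ganglion cells alone. Nothing in the labels says whether libraries of 1 population came from separate clutches, so p-values measure the spread between these libraries, which may be partly technical.

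The genes behind the reporters were examined first. Transcripts of crx (ENSDARG00000011989, chromosome 5 from 36932718 to 36936443 on GRCz11), the homeobox gene that directs photoreceptor gene expression, stood at 1253, 803, 1147, 1895 and 1293 CPM in photoreceptors (replicates 1 to 5 in order). In progenitors they stood at 44.5, 25.3, 19.5, 95.8 and 45.5 CPM. Every photoreceptor library lay above every progenitor library, and crx was 4.79 ± 0.36 (SE) higher on the log2 scale (adjusted p = 4.3e-08, edgeR quasi-likelihood test). From here on, a log2 fold change is given as photoreceptors minus progenitors ± SE, with the adjusted p of that test. Ganglion cells held a mean of 387 ± 64.0 CPM of crx and amacrine with horizontal cells 579 ± 87.6 CPM (SD, n = 5 each). Both were gated as crx-, and both means lay above the progenitor mean of 46.1 CPM.

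For atoh7 (ENSDARG00000069552), the proneural factor that permits ganglion cell genesis, the levels were 1008, 396, 168, 99.5 and 310.1 CPM in photoreceptors and 1128, 510.1, 841, 696 and 804 CPM in progenitors. The ranges overlapped, and the mean was lower in the population sorted for the ath5 reporter (log2 fold change -1.01 ± 0.50, adjusted p = 0.34). With photoreceptor replicate 1 left out the difference passed the threshold (log2 fold change -1.70, adjusted p 0.03). Reporter-negative progenitors thus held atoh7 RNA in all 5 libraries. The amacrine and horizontal cell determinant ptf1a (ENSDARG00000014479) measured 20.3, 136, 66.3, 59.3 and 26.1 CPM in photoreceptors and 37.5, 8.82, 17.3, 0 and 29.4 CPM in progenitors, with overlapping ranges and no call (log2 fold change 1.73 ± 0.80, adjusted p = 0.29).

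Of 13838 genes tested, 434 (3.14%) were higher and 284 (2.05%) were lower in photoreceptors at an adjusted p under 0.05, which makes 718 calls (5.19%). At an unadjusted p under 0.05 there were 2220. In 587 of the 718 the 5 photoreceptor libraries did not overlap the 5 progenitor libraries. Over all genes tested, called or not, the libraries did not overlap in 11.0%, with photoreceptors above in 6.49% and below in 4.49%. Over all genes tested the median log2 fold change was 0.02. The labels give each library a track number, which for both populations falls in a lower range (replicates 1 and 2) and an upper range (replicates 3 to 5). Within the lower range 36 genes were called and within the upper range 1233, and all 665 main calls measured in these subsets kept their sign in each. Leaving out amacrine and horizontal cell replicate 1 raised the calls to 1127. That library had 7031 genes with at least 10 counts, the fewest of all libraries, and globin genes at 8424 CPM. Its 100 highest genes took 48.7% of its counts. The spread common to all genes (edgeR common dispersion) was 1.26 in the main fit, which includes that library. It was 0.77 in the 10 photoreceptor and progenitor libraries alone, which gave 992 calls. Progenitor replicates 3 and 4 without the 3 globin-bearing libraries gave 317, with 715 of the 718 calls keeping their sign.

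**Figure D1:**
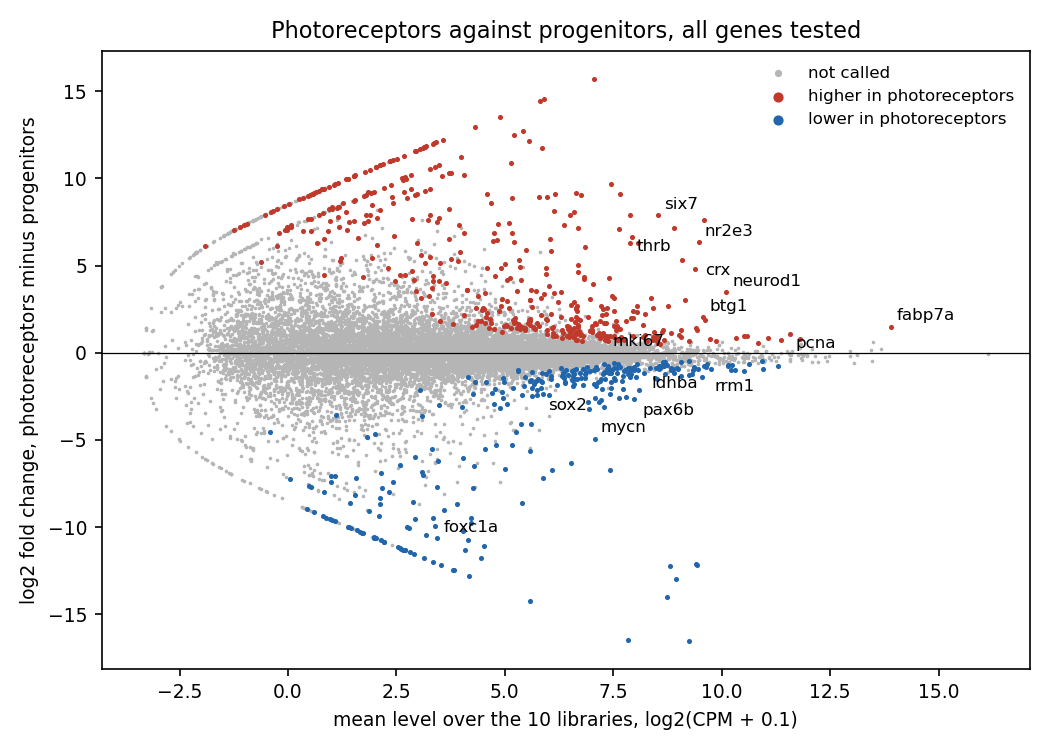
Log2 fold change between photoreceptors and progenitors (vertical axis) against the mean level over the 10 libraries on a log2 scale (horizontal axis) for each gene tested, with called genes in red (434 higher) and blue (284 lower). Photoreceptor factors such as six7, nr2e3 and thrb sit far above 0, cell cycle genes such as pcna and mki67 sit near 0, and the slanted edges are genes with no counts in 1 population, whose fitted values depend on the prior count.

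The largest fold differences towards photoreceptors belonged to genes with few or no progenitor reads. A recoverin gene, listed as RCVRN (ENSDARG00000019902, chromosome 16 from 13911692 to 13921589), which encodes a calcium sensor of the phototransduction cascade, was read in each photoreceptor library, at 129, 325, 309, 199 and 364 CPM. All 5 progenitor libraries had 0 counts. Its mean was at least 2253-fold higher in photoreceptors when progenitors are set at the floor of 3 counts per library (adjusted p = 0.0014, edgeR). Next came foxq2, and after it CA7, a carbonic anhydrase gene, at 59.1 ± 13.1 CPM (SD, n = 5) and at least 502-fold higher. The other genes in this top 10 were the GTPase-activating protein gene arhgap20, the synaptotagmin gene syt5b, the death receptor inhibitor gene FAIM2, zgc:112294, RADIL, si:ch211-105f12.2 and the apelin receptor gene aplnrb, with photoreceptor means from 20.1 to 93.9 CPM. In the last of these the libraries ran from 7.68 to 33.1 CPM in photoreceptors against 0 in progenitors.

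Among called genes with at least a 2-fold change, the highest photoreceptor level per length was that of fabp7a (ENSDARG00000007697), a fatty acid-binding protein gene best known from radial glia and neural progenitors. It reached 23112, 36087, 21956, 14623 and 16308 CPM in photoreceptors and 7819.7, 7474, 8686, 8695 and 7214 CPM in progenitors. Per length the means were 26128 against 9298 CPM per kilobase of exon. Each photoreceptor library exceeded each progenitor library (log2 fold change 1.49 ± 0.25, adjusted p = 0.00083). Far below it per length followed si:dkey-21o19.2 (1072 against 7.6 CPM per kilobase), the microtubule-destabilising stathmin gene STMN1 (989 against 479) and PDE6G, which encodes the inhibitory subunit of a photoreceptor phosphodiesterase (894 against 4.62). PDE6G was 1449, 1623, 1419, 1615 and 1515 CPM in photoreceptors and 11.3, 6.03, 0.0417, 2.33 and 19.7 CPM in progenitors, the closest agreement among photoreceptor libraries of these 4 genes (log2 fold change 7.6 ± 0.85, adjusted p = 7.6e-06). The histone variant gene h2ax rose by 2.35 ± 0.23 (SE) on the log2 scale, from 86.6 to 440.0 CPM, and zgc:110540 by 1.41 ± 0.25.

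The gene lists below hold genes known from the retina and its surroundings, and were chosen with earlier results of these data known. Their counts refer to the members that passed the filter on low counts. A member filtered in only through its photoreceptor libraries, or only through its progenitor libraries, had to differ. The counts thus describe these members and do not weigh the list against others.

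**Figure D2:**
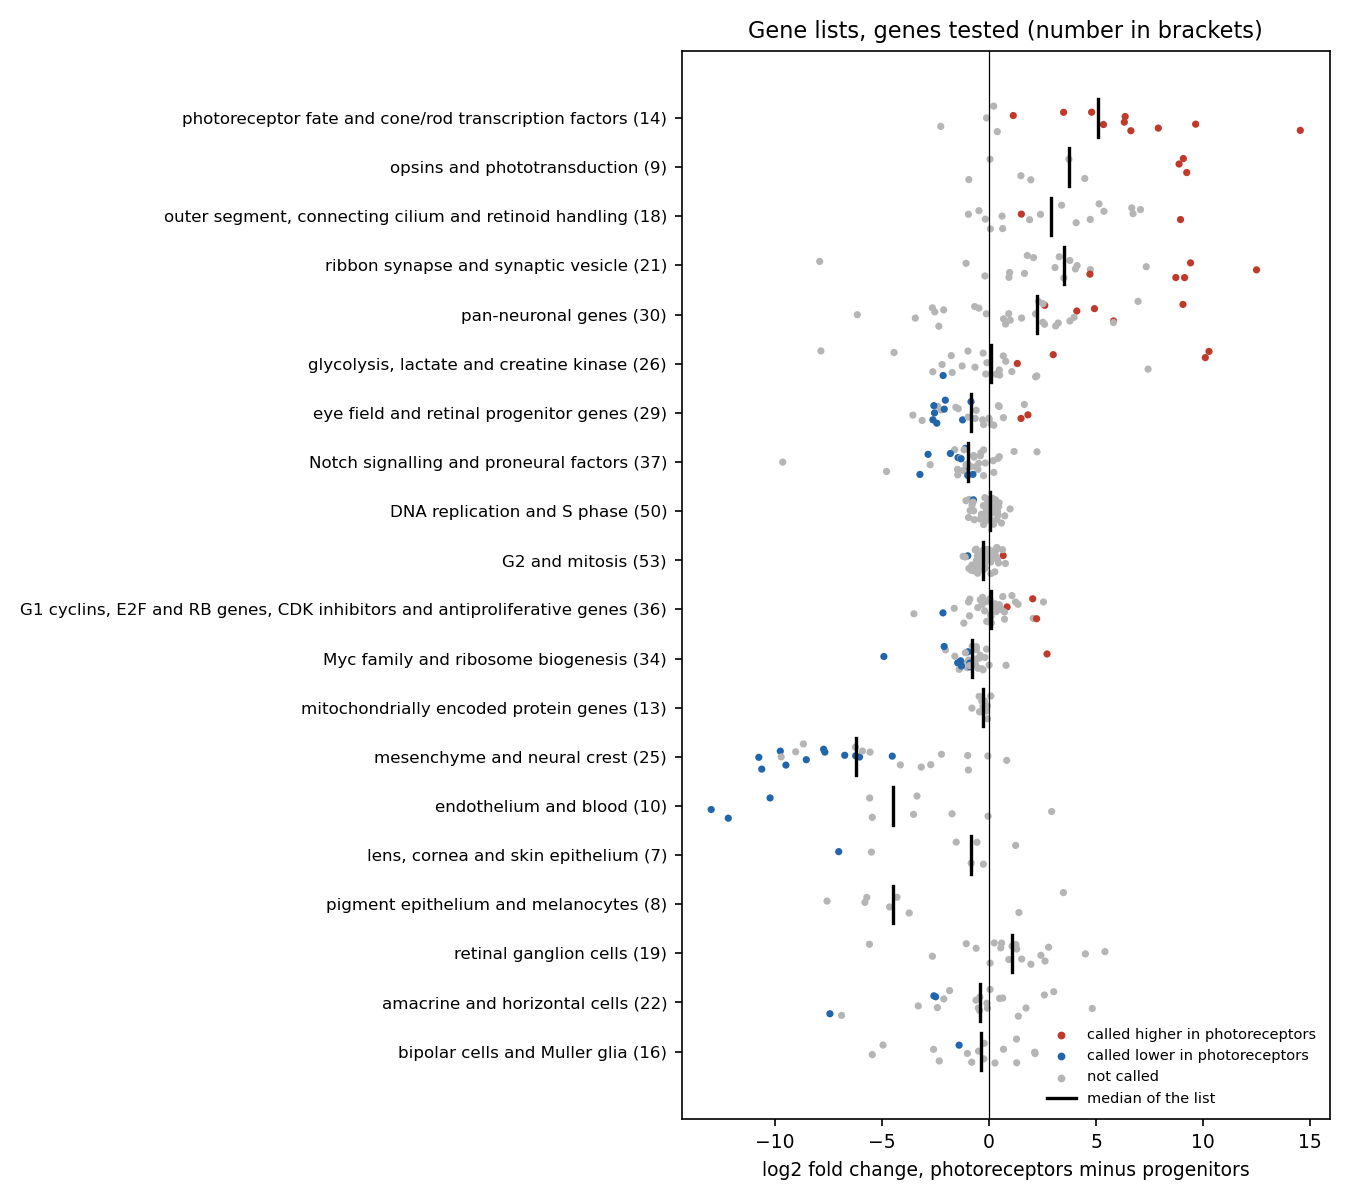
Log2 fold change between photoreceptors and progenitors (horizontal axis) for each tested member of 20 gene lists (rows, number tested in brackets), with called members in red or blue, others in grey, and the median of each list as a black bar. The transcription factor list has its median at 5.07, the S phase list lies tightly around 0.03 and the mesenchyme list has its median at -6.24; fitted values of members at 0 in 1 population depend on the prior count.

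Transcription factors of photoreceptor fate and of cone and rod identity rose in most members. Of 14 tested members (17 found), 10 were called higher and 0 lower, where 3.14% of all genes tested were called higher, and the median log2 fold change was 5.07. The called members include crx, whose reporter was used to separate the 2 populations. The basic helix-loop-helix gene neurod1 (ENSDARG00000019566, chromosome 9 from 44291721 to 44295071), needed for photoreceptor differentiation, was at 1363, 2269, 2108, 2259 and 2039 CPM in photoreceptors and 181, 201, 167, 196 and 153 CPM in progenitors. Its libraries were tight in progenitors and low in photoreceptor replicate 1, without overlap between groups (log2 fold change 3.48 ± 0.19, adjusted p = 4.3e-10). For nr2e3 (ENSDARG00000045904), a nuclear receptor that in mouse represses cone genes in rods, the photoreceptor levels were 1409, 1409, 1637, 1435 and 1103 CPM and the progenitor levels 37.3, 0, 19.8, 11.1 and 17 CPM. In progenitors it varied widely and was not read in replicate 2, yet no library came near the photoreceptor range (log2 fold change 6.36 ± 0.87, adjusted p = 7.9e-05).

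Cone subtype regulators were among the clearest differences. The thyroid hormone receptor gene thrb (ENSDARG00000021163, chromosome 19 from 17514631 to 17658253), required for red cones, measured 1277, 749, 1314, 1026 and 958 CPM in photoreceptors and 35.0, 5.65, 38.2, 24.0 and 28.2 CPM in progenitors (log2 fold change 5.34 ± 0.56, adjusted p = 3.7e-06). The homeobox gene six7 (ENSDARG00000070107), which drives green opsin genes in zebrafish, was at 553, 715, 742, 753 and 893 CPM and 5.18, 0.124, 3.42, 5.69 and 0.855 CPM (log2 fold change 7.91 ± 0.78, adjusted p = 1.7e-06). For foxq2 (ENSDARG00000071394), the forkhead gene of blue cones, photoreceptor libraries read 27.3, 111, 112, 209 and 134 CPM and all 5 progenitor libraries 0 counts, so that its level was at least 1009-fold higher (adjusted p = 0.00083). In all 3 genes the groups stayed apart, and photoreceptor replicate 1 was the lowest for six7 and foxq2 but not for thrb. The retinoid X receptor gene rxrga, which restrains S opsin in mouse cones, rose from 4.86 to 480.5 CPM (log2 fold change 6.63 ± 1.12, adjusted p = 0.00082).

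Among the remaining factors, samd7 (ENSDARG00000060354), a Polycomb-associated repressor of photoreceptors, stood at 263, 429, 356, 331 and 354 CPM in photoreceptors against 0.663, 0, 1.42, 0.0862 and 0 CPM in progenitors (log2 fold change 9.66 ± 0.99, adjusted p = 2.8e-06). Transcripts of prdm1a, which in mouse holds cells to the photoreceptor instead of the bipolar fate, averaged 466 ± 129 CPM against 5.83 ± 8.93 CPM (SD, n = 5 each; log2 fold change 6.32 ± 1.27, adjusted p = 0.004). The T-box gene tbx2a rose modestly, from 63.0 to 138 CPM (log2 fold change 1.13 ± 0.28, adjusted p = 0.019), and lost its call when any 1 of photoreceptor replicate 3 and progenitor replicates 4 and 5 was left out (log2 fold change 0.99 to 1.0, adjusted p 0.061 to 0.074). Its paralog tbx2b, needed for UV cones, was at 315 ± 48.2 CPM in photoreceptors and 271 ± 69.8 CPM in progenitors (SD, n = 5 each; adjusted p = 0.78). Transcripts of otx2b (ENSDARG00000011235), the factor upstream of crx, stood at 279.6, 257, 309, 305 and 374 CPM in photoreceptors and 227, 284, 137, 279.8 and 242 CPM in progenitors. Those ranges overlapped and did not pass the test (log2 fold change 0.38 ± 0.19, adjusted p = 0.34), unlike those of crx. The nuclear receptor gene rorb was at 190.5 ± 70.4 and 207 ± 102 CPM (SD, n = 5 each; adjusted p = 0.96), and the rod factor gene nrl was not tested, with at most 2.24 CPM in any photoreceptor library.

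**Figure D3:**
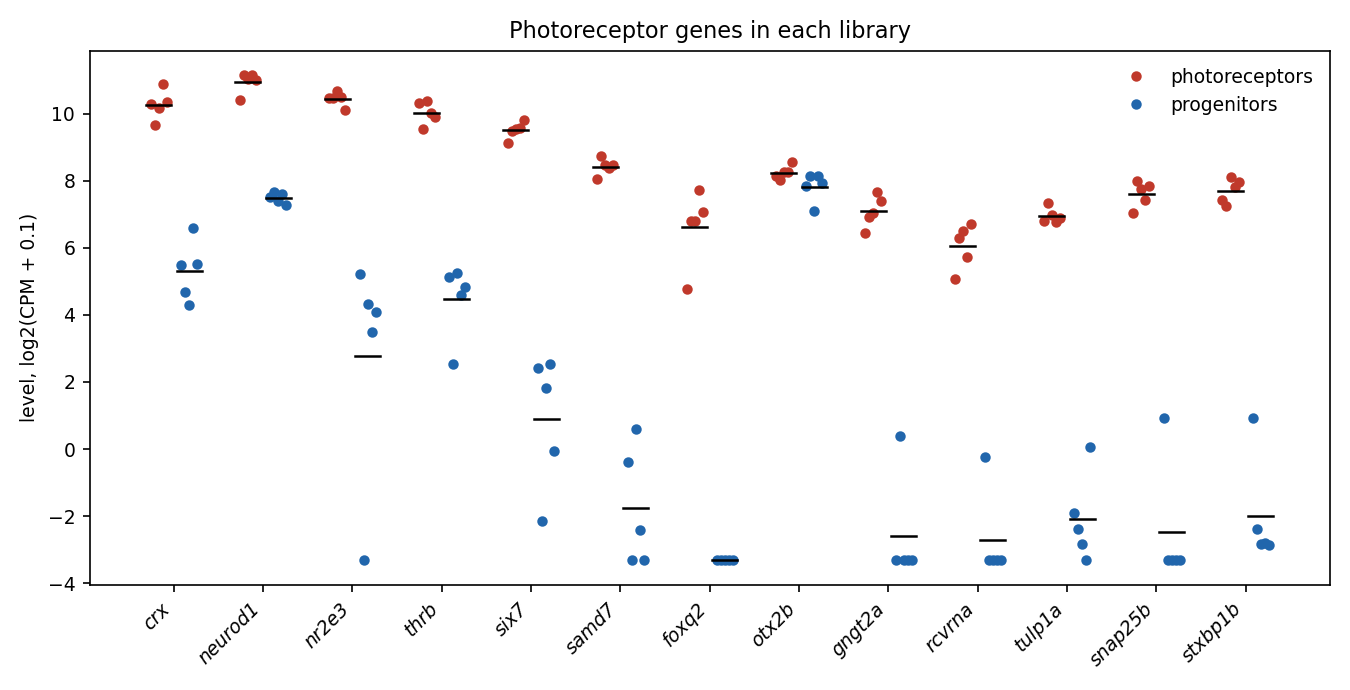
Levels of 13 genes in each photoreceptor (red) and progenitor (blue) library on a scale of log2(CPM + 0.1), with the group mean on that scale as a black bar. For 12 of the 13 genes the colours do not overlap, while otx2b overlaps; points at the bottom are libraries with 0 counts.

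The photoreceptor factors were not confined to the photoreceptor gate. Ganglion cells averaged 650.4 ± 137 CPM of neurod1 and amacrine with horizontal cells 505 ± 101 CPM (SD, n = 5 each). Photoreceptors exceeded both (log2 fold change 1.63 and 1.99, adjusted p = 2.3e-05 and 8.9e-07). Mean six7 was 141 ± 87.4 and 138 ± 75.2 CPM in those gates, both above the 3.05 CPM of progenitors. Against ganglion cells six7 was 2.38 higher in photoreceptors on the log2 scale (adjusted p = 0.041), a call lost when any 1 of photoreceptor replicates 2, 3, 4 and 5 and ganglion cell replicates 1, 2, 3 and 4 was left out (log2 fold change 2.19 to 2.46, adjusted p 0.071 to 0.12). Of the 14 tested factors, 5 were called higher in photoreceptors than in ganglion cells and 1 lower (0.838% and 1.27% of all genes, 2.11% in either direction). Against amacrine and horizontal cells 10 were called higher and 2 lower (4.77% and 3.94%, 8.71% in either direction). These comparisons share the photoreceptor libraries.

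Genes of light detection were mostly too low to test. Of 44 opsin and phototransduction genes found, 9 passed the filter and 35 did not, of which 27 stayed under 1 CPM in every photoreceptor library. The 6 untested red and green cone opsin genes reached at most 1.25 CPM in a photoreceptor library and 2.1 CPM in a progenitor library. Also untested was the rod transducin gene gnat1, at 0, 11.2, 5.97, 6.61 and 3.84 CPM in photoreceptors and at most 0.0417 CPM in progenitors. The recoverin gene rcvrnb was at 0, 6.37, 3.47, 2.40 and 5.71 CPM in photoreceptors and was not read in progenitors. Among the 9 tested, 3 were called higher (3.14% of all genes tested were) and none lower. The called genes RCVRN and PDE6G described above are not among these, since their symbols are not in the list. The cone transducin gamma subunit gene gngt2a (ENSDARG00000010680) was at 86.4, 121, 130.4, 202 and 168 CPM in photoreceptors, and in progenitors only replicate 2 had reads, at 1.21 CPM (log2 fold change 9.08 ± 1.5, adjusted p = 0.0007). The recoverin gene rcvrna (ENSDARG00000052223) was at 33.5, 77.9, 90.6, 52.2 and 104 CPM in photoreceptors and was read in progenitor replicate 1 alone, at 0.746 CPM (log2 fold change 8.88 ± 2.02, adjusted p = 0.011). The cone cyclic nucleotide-gated channel gene cnga3a averaged 12.6 ± 3.88 CPM (SD, n = 5) against 0.0161 CPM in progenitors. From counts pooled over the 5 libraries of each group and scaled by the pooled library sizes, it was 825-fold (95% exact counting interval 228 to 6815) higher (adjusted p = 0.0021). Every fold with a counting interval was taken from pooled counts in this way and differs somewhat from the ratio of the group means. Leaving out single libraries gave 3 to 5 calls, with 5 reached without photoreceptor replicate 1, without progenitor replicate 1 or 3, or without any 1 of the 10 other libraries. The set tested changed too, with 11 members past the filter without amacrine and horizontal cell replicate 1. The broadly expressed beta subunit gene gnb1b was level between the groups, at 409 and 398 CPM (adjusted p = 0.97). None of the 9 was called against ganglion cells. Against amacrine and horizontal cells 2 were higher in photoreceptors (4.77% of all genes) and none lower, with a median log2 fold change of -0.04. Summed over the genes found, photoreceptors held 582 to 788 CPM and progenitors 371 to 454 CPM. Ganglion cells held 379 to 740 CPM and amacrine and horizontal cells 511 to 710 CPM. These sums include the broadly expressed gnb1b, with means of 409 CPM in photoreceptors and 398 CPM in progenitors, and leave out RCVRN and PDE6G.

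Outer segment, connecting cilium and retinoid genes came next. Of 18 tested (34 found), 2 were called higher (3.14% of all genes tested were) and none lower, with a median log2 fold change of 2.90. The number called higher rested on the method, at 7 with voom, 7 with DESeq2, 5 in the 10 libraries alone and 9 in the upper track range. The tubby-like gene tulp1a (ENSDARG00000075295), whose product helps move proteins into the outer segment, was at 111, 161, 125, 109 and 118 CPM in photoreceptors and 0.166, 0.0932, 0.0417, 0 and 0.932 CPM in progenitors (log2 fold change 8.95 ± 1.2, adjusted p = 6.2e-05). Every progenitor library was under 1 CPM and the groups were far apart. The kinesin motor gene kif3a rose from 16.2 to 46.2 CPM (log2 fold change 1.51 ± 0.38, adjusted p = 0.023), and the call was lost when any 1 of photoreceptor replicates 3 and 4 and progenitor replicates 2, 3 and 5 was left out (log2 fold change 1.29 to 1.5, adjusted p 0.05 to 0.074). Other members had large differences that edgeR did not call over all 20 libraries. Retinoschisin gene rs1a read 0, 63.1, 22.7, 12.9 and 40.5 CPM in photoreceptors, with none in replicate 1, and at most 1.2 CPM in progenitors (log2 fold change 6.67 ± 2.03, adjusted p = 0.061). It was called when any 1 of amacrine and horizontal cell replicates 1 and 3, photoreceptor replicate 1 and progenitor replicate 1 was left out (log2 fold change 6.67 to 9.36, adjusted p 0.024 to 0.0459), and also with voom, with DESeq2 and in the 10 libraries alone (adjusted p = 0.039, 0.0004 and 0.036). The call of rdh8a likewise depended on the method. In this all-trans-retinol dehydrogenase gene, photoreceptors ran from 49.6 to 82.0 CPM and progenitors from 0 to 10.8 CPM, apart in every library (adjusted p = 0.22, or 0.0034 with voom and 0.049 in the 10 libraries alone). The count of calls rose to 5 without amacrine and horizontal cell replicate 1 and to 4 without replicate 3 of that group or progenitor replicate 1, and fell to 1 without photoreceptor replicate 3 or 4 or progenitor replicate 3.

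Synaptic machinery was called higher in 5 of 21 tested members (3.14% of all genes tested) and lower in none (median log2 fold change 3.49). The number called higher rested on the method, at 13 with voom and 9 with DESeq2, which also called 1 lower. It was 10 in the upper track range and 0 in the lower. The SNARE gene snap25b (ENSDARG00000058117, chromosome 17 from 12297984 to 12389259), part of the vesicle fusion complex, was at 131, 254, 216, 170.3 and 227 CPM in photoreceptors, with 1.78 CPM in progenitor replicate 1 and 0 in the other 4 (log2 fold change 9.14 ± 1.16, adjusted p = 3.1e-05). Transcripts of stx3a, the syntaxin of ribbon synapses, averaged 19.1 ± 8.29 CPM (SD, n = 5) and were 859.7-fold (95% exact counting interval 294 to 4172) higher than in progenitors (adjusted p = 0.015). The synaptotagmin gene syt5b was 10090.1-fold (95% exact counting interval 1811 to 398577) higher (adjusted p = 0.0011). The synaptobrevin gene vamp2 rose from 0.516 to 13.7 CPM (log2 fold change 4.71 ± 1.15, adjusted p = 0.017). Its call was lost in the 10 libraries alone (adjusted p = 0.077), with photoreceptor replicates 2, 3 and 4 only (0.053) and in the lower track range, where few genes were called. Synaptophysin gene sypb was 685-fold (95% exact counting interval 123 to 27093) higher (adjusted p = 0.018), a call lost when any 1 of progenitor replicates 2, 3 and 5 was left out (adjusted p 0.0506 to 0.0527). The active zone gene bsnb, for Bassoon, was at 12 against 1.07 CPM and not called (adjusted p = 0.098). Summed over the list, photoreceptor replicates 1 to 5 held 304, 427, 427, 440.5 and 412 CPM and progenitor replicates 65.0, 32.5, 15.8, 13.8 and 11.6 CPM, of which replicate 1 was the highest progenitor, and without it 9 genes were called. With photoreceptor replicates 2, 3 and 4 only, the 3 with the fewest ganglion cell genes, 3 were called. The other gates with a reporter also held these transcripts, at 98.9 to 207 CPM in ganglion cells and 361 to 601 CPM in amacrine and horizontal cells. No member was called against ganglion cells (median log2 fold change 0.53). Against amacrine and horizontal cells none was higher in photoreceptors and 2 were lower (3.94% of all genes, median -1.0).

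General neuronal genes rose in 5 of 30 tested members (3.14% of all genes tested) and fell in none (median 2.24, or 1.84 with the member at 0 in 1 population set at its bound). With voom 9 were called higher, and with DESeq2 9 higher and 1 lower. The upper track range gave 11 higher and the lower range 0. Syntaxin-binding gene stxbp1b (ENSDARG00000056036) was at 171, 151, 275, 223 and 250.4 CPM in photoreceptors and at 1.78, 0.0932, 0.0417, 0.0431 and 0.0388 CPM in progenitors (log2 fold change 9.06 ± 1.47, adjusted p = 0.00056). The sodium pump subunit gene atp1a3a averaged 131 against 2.32 CPM (log2 fold change 5.82 ± 1.09, adjusted p = 0.0023). Growth cone gene gap43 averaged 78.5 against 2.58 CPM (log2 fold change 4.93 ± 0.69, adjusted p = 0.00011). The beta-synuclein gene sncb (log2 fold change 4.1 ± 1.09, adjusted p = 0.029) lost its call when any 1 of photoreceptor replicates 1 and 3 was left out (log2 fold change 3.80 to 4.11, adjusted p 0.0506 to 0.0537). So did mllt11 (log2 fold change 2.60 ± 0.71, adjusted p = 0.035), when any 1 of photoreceptor replicates 1 and 5 and progenitor replicates 2 and 5 was left out (log2 fold change 2.14 to 2.64, adjusted p 0.07 to 0.091). Both sncb and mllt11 also lost their calls in the 10 libraries alone and with photoreceptor replicates 2, 3 and 4 only. By contrast the RNA-binding gene elavl3, an early marker of postmitotic neurons, was at 245, 19.0, 4.63, 1.13 and 50.1 CPM in photoreceptors and 29.5, 78.2, 35.4, 19.3 and 6.53 CPM in progenitors. Its photoreceptor mean rested on replicate 1, and the log2 fold change went from 0.92 (adjusted p = 0.75) to -0.87 without it. That library also had the highest summed ganglion cell genes of the photoreceptor libraries, at 1299 CPM, and the highest amacrine and horizontal cell genes, at 439 CPM. Without it the list had 3 calls, against 3 with photoreceptor replicates 2, 3 and 4 only, 10 without progenitor replicate 1 and 8 without amacrine and horizontal cell replicate 1. The part of RNA from ganglion or other cells in these values was not tested. In bulk libraries fewer cells of a type and less RNA per cell cannot be told apart. Ganglion cells exceeded photoreceptors in 3 members (1.27% of all genes) and amacrine and horizontal cells in 7 (3.94%).

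Energy metabolism genes were called in both directions. Of 26 tested glycolysis, lactate and creatine kinase genes, 4 rose and 1 fell, where 3.14% and 2.05% of all genes tested did, with a median log2 fold change of 0.11. The lower calls became 3 without amacrine and horizontal cell replicate 1 or 5 and 2 without photoreceptor replicate 1 or 5 or ganglion cell replicate 1 or 2. The brain-type creatine kinase gene ckbb (ENSDARG00000043257) was at 643, 1014, 1079, 1153 and 1173 CPM in photoreceptors and 78.3, 100.4, 100.4, 229 and 126 CPM in progenitors, without overlap (log2 fold change 3.0 ± 0.33, adjusted p = 5.7e-06). The mitochondrial creatine kinase gene ckmt2a was 1780.4-fold (95% exact counting interval 493 to 14707) higher (adjusted p = 0.0045), although photoreceptor replicate 1 had 0.299 CPM and the other 4 had 25.2 to 42.9 CPM. The lactate exporter gene slc16a3 averaged 23.3 ± 13.8 CPM (SD, n = 5) and was 1423-fold (95% exact counting interval 394 to 11758) higher (adjusted p = 1.8e-05). The glycolytic dehydrogenase gene gapdhs rose from 395 to 985 CPM (log2 fold change 1.32 ± 0.33, adjusted p = 0.019), a call lost when any 1 of photoreceptor replicate 2 and progenitor replicate 4 was left out (log2 fold change 1.15 to 1.21, adjusted p 0.058 to 0.059). In the other direction, the lactate dehydrogenase B gene ldhba (ENSDARG00000019644) went from 389, 505, 442, 498 and 389.7 CPM in progenitors to 124, 71.9, 109, 96.0 and 101 CPM in photoreceptors (log2 fold change -2.15 ± 0.19, adjusted p = 2.7e-07). The aldolase gene aldoaa was also lower in every photoreceptor library (234 against 464 CPM) but missed the threshold (log2 fold change -0.99 ± 0.30, adjusted p = 0.06), which it passed when any 1 of amacrine and horizontal cell replicates 1 and 5 and photoreceptor replicate 1 was left out (log2 fold change -1.30 to -0.99, adjusted p 0.0056 to 0.047).

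Eye field and progenitor genes fell in part. Of 29 tested members, 8 were called lower (2.05% of all genes tested were) and 2 higher, fabp7a among the latter, with a median log2 fold change of -0.85. Photoreceptors were also called lower than ganglion cells in 11 members and higher in none (1.27% and 0.838% of all genes, median -0.91). Against amacrine and horizontal cells 15 were lower and 1 higher (3.94% and 4.77%, median -1.79). Summed over the list, photoreceptors held 24303 to 49093 CPM and progenitors 19228 to 20156 CPM, sums that include fabp7a. Paired box gene pax6b (ENSDARG00000045936, chromosome 7 from 15871156 to 15900606), which keeps progenitors multipotent, was at 116, 44.7, 50.8, 74.9 and 63.0 CPM in photoreceptors and 445, 358, 331, 546 and 478 CPM in progenitors (log2 fold change -2.63 ± 0.28, adjusted p = 3.6e-06). Its paralog pax6a fell alike, from 340.1 to 56.8 CPM (log2 fold change -2.58 ± 0.30, adjusted p = 1e-05). The retinal homeobox gene rx1 (ENSDARG00000071684) was at 143, 27.5, 58.2, 58.5 and 37.3 CPM against 373, 368, 434, 385 and 341 CPM, with photoreceptor replicate 1 well above the other 4 of its group (log2 fold change -2.55 ± 0.36, adjusted p = 0.00014). The stem cell factor gene sox2 (ENSDARG00000070913) was at 94.6, 67.1, 42.5, 46.1 and 35.6 CPM against 199, 267, 219.6, 283 and 254 CPM (log2 fold change -2.1 ± 0.27, adjusted p = 3.1e-05). In each of these 4 genes every photoreceptor library lay below every progenitor library.

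Transcripts of six3b fell from 279.5 to 67.6 CPM (log2 fold change -2.05 ± 0.23, adjusted p = 7.2e-06). Those of sox11a fell from 581 to 246 CPM (log2 fold change -1.24 ± 0.23, adjusted p = 0.0018). The paralog sox11b (log2 fold change -0.85 ± 0.23, adjusted p = 0.031) lost its call when any 1 of photoreceptor replicates 2, 3 and 5 and progenitor replicates 2 and 3 was left out (log2 fold change -0.87 to -0.64, adjusted p 0.064 to 0.11). The sox11b call was also lost in the 10 libraries alone. The LIM homeobox gene lhx9 was higher in photoreceptors (17.4 against 4.94 CPM, log2 fold change 1.82 ± 0.47, adjusted p = 0.025), a call lost when any 1 of photoreceptor replicate 3 and progenitor replicates 1, 3 and 5 was left out (log2 fold change 1.62 to 1.78, adjusted p 0.0544 to 0.077). Another retinal homeobox gene, rx2, which persists in zebrafish photoreceptors, was at 89.1 ± 21.9 and 76.7 ± 9.43 CPM (SD, n = 5 each) and was not called (adjusted p = 0.97).

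Notch pathway and proneural genes were called lower in 9 of 37 tested members (2.05% of all genes tested) and higher in none, with 31 negative log2 fold changes and a median of -1.0. Against ganglion cells 8 members were lower in photoreceptors and none higher (1.27% and 0.838% of all genes, median -0.43). Against amacrine and horizontal cells 8 were lower and 5 higher (3.94% and 4.77%, median 0.06). The list summed to 7930 to 10975 CPM in ganglion cells, above the 5992 to 7253 CPM of progenitors. Photoreceptors held 3349 to 5501 CPM and amacrine and horizontal cells 4750 to 9773 CPM. Among the ligands, dlc (ENSDARG00000002336) was at 45.4, 21.8, 16.9, 9.11 and 24.9 CPM in photoreceptors and 258, 192, 232, 179 and 249 CPM in progenitors (log2 fold change -3.24 ± 0.42, adjusted p = 3.8e-05). Its relative dlb fell from 213 to 29.5 CPM (log2 fold change -2.85 ± 0.29, adjusted p = 2.3e-06). The receptor gene notch1a (ENSDARG00000103554) was at 62.0, 64.6, 43.9, 53.6 and 70.3 CPM against 246, 140.4, 107, 286 and 255 CPM (log2 fold change -1.81 ± 0.31, adjusted p = 0.00083). These 3 genes kept the groups apart in every library. The receptor gene notch3 was at 139 ± 44.9 and 200.1 ± 72.5 CPM (SD, n = 5 each) and was not called (adjusted p = 0.65). The E3 ligase gene mib1, which activates the ligands, fell (log2 fold change -1.11 ± 0.32, adjusted p = 0.045), a call lost when any 1 of photoreceptor replicates 2, 3, 4 and 5 and progenitor replicates 1, 4 and 5 was left out (log2 fold change -1.2 to -0.84, adjusted p 0.0522 to 0.15). The mib1 call was also lost in the 10 libraries alone and with voom.

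Among the targets, the Hes5-related gene her15.2 fell from 136 to 54.7 CPM (log2 fold change -1.31 ± 0.33, adjusted p = 0.019), but its call was lost when any 1 of photoreceptor replicates 1, 4 and 5 and progenitor replicate 4 was left out (log2 fold change -1.30 to -1.15, adjusted p 0.0504 to 0.06). Its relative her4.2 was at 141 ± 58.2 and 186 ± 52.8 CPM (SD, n = 5 each; adjusted p = 0.88). Among proneural and associated factors, foxn4, which primes progenitors for amacrine and horizontal fates, fell from 520.1 to 189.7 CPM (log2 fold change -1.45 ± 0.17, adjusted p = 1.1e-05). Transcripts of hes6 fell from 867 to 433 CPM (log2 fold change -1.0 ± 0.16, adjusted p = 0.0006). The proneural gene ascl1a (ENSDARG00000038386) was at 109, 159, 147, 105 and 167 CPM against 281, 336, 279, 375 and 171 CPM (log2 fold change -1.07 ± 0.29, adjusted p = 0.031). Its groups did not overlap, and its call was lost when any 1 of photoreceptor replicates 1, 2, 3 and 4 and progenitor replicates 2, 3 and 4 was left out (log2 fold change -1.14 to -0.96, adjusted p 0.0505 to 0.084). The zinc finger gene insm1a (log2 fold change -0.76 ± 0.21, adjusted p = 0.033) likewise lost its call when any 1 of photoreceptor replicates 2, 3 and 5 and progenitor replicates 1, 2, 3 and 5 was left out (log2 fold change -0.77 to -0.67, adjusted p 0.0538 to 0.093). The bHLH gene neurod4 went the other way without passing the test, at 1126 against 845 CPM (adjusted p = 0.19). With only progenitor replicates 3 and 4, which held 1.62 and 1.25 CPM of globin genes, 5 members of the list were called lower. Without progenitor replicate 3, 1 member was called higher.

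Genes of the Myc family and of ribosome biogenesis fell in 8 of 34 tested members (2.05% of all genes tested) and rose in 1, with 31 negative log2 fold changes and a median of -0.79. The family itself split. The growth-promoting gene mycn (ENSDARG00000006837, chromosome 20 from 33294428 to 33299384) was at 21.4, 3.1, 5.51, 5.55 and 7.30 CPM in photoreceptors and 242, 256, 346, 232 and 220.4 CPM in progenitors (log2 fold change -4.92 ± 0.84, adjusted p = 0.00084). The opposite held for myclb (ENSDARG00000034956, chromosome 19 from 30805513 to 30811161), with 299, 121, 152, 169 and 136 CPM in photoreceptors and 35.6, 28.4, 31.0, 21.0 and 18.3 CPM in progenitors (log2 fold change 2.71 ± 0.33, adjusted p = 1.8e-05). No library of either group overlapped the other for either gene, and photoreceptor replicate 1 was the highest of its group in both. In ganglion cells mycn averaged 29.7 ± 10.5 CPM and in amacrine and horizontal cells 54.8 ± 51.7 CPM (SD, n = 5 each). For myclb these means were 140.1 ± 30.2 and 100.1 ± 51.8 CPM. Both other sorted populations thus lay on the photoreceptor side of progenitors in mean level, a difference that was not tested.

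Nucleolar genes were among those that fell. The nucleophosmin gene npm1a (ENSDARG00000014329) was at 395, 385, 359.7, 303 and 309 CPM in photoreceptors and 721, 679, 1141, 1001 and 755 CPM in progenitors, apart in every library (log2 fold change -1.29 ± 0.21, adjusted p = 0.00058). The ribosome assembly gene rrs1 (log2 fold change -2.1 ± 0.23, adjusted p = 5.9e-06) and the fibrillarin gene fbl (log2 fold change -1.47 ± 0.29, adjusted p = 0.004) fell. So did the small nucleolar RNP genes nop58, nop56 and nhp2 (log2 fold change -0.99, -0.90 and -0.89). The nucleolin gene ncl (log2 fold change -1.33 ± 0.38, adjusted p = 0.046) lost its call when any 1 of photoreceptor replicates 1, 2, 3 and 5, progenitor replicates 2, 3, 4 and 5 and ganglion cell replicates 2 and 3 was left out (log2 fold change -1.43 to -0.97, adjusted p 0.0513 to 0.16). The fit to the 10 libraries alone called 18 members lower and the fit without amacrine and horizontal cell replicate 1 called 13. Summed over the list, photoreceptors held 2743 to 3858 CPM, progenitors 5439.7 to 7736, ganglion cells 3629 to 4664 and amacrine and horizontal cells 3068 to 4031 CPM. All 5 progenitor libraries also carried mesenchyme genes, at 461 to 749.5 CPM in sum, and their part in these differences was not tested.

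Genes of DNA replication gave few calls between photoreceptors and progenitors with edgeR. Of 50 members, all of which passed the filter, 1 was called lower and none higher, where 2.05% and 3.14% of all genes tested were, with a median log2 fold change of 0.03. With voom 6 were called lower and 2 higher, and with DESeq2 2 lower and 1 higher. The replication clamp gene pcna (ENSDARG00000054155, chromosome 10 from 40821804 to 40826657) was at 2546, 2587, 3498, 2788 and 3219 CPM in photoreceptors and 2834, 2928, 3442, 2542 and 3521 CPM in progenitors, with interleaved libraries (log2 fold change -0.06 ± 0.19, adjusted p = 0.97). The called member, rrm1 (ENSDARG00000014017), which encodes the large subunit of ribonucleotide reductase, was at 631, 518, 683, 581 and 498 CPM against 970.4, 988, 1099, 864 and 922 CPM (log2 fold change -0.73 ± 0.14, adjusted p = 0.0027). The helicase subunit gene mcm5 was at 367 ± 185 and 605 ± 87.3 CPM (SD, n = 5 each; adjusted p = 0.12). It was called when photoreceptor replicate 1 was left out (log2 fold change -1.08, adjusted p 0.004). In that fit 4 members of the list were called lower, against 2 without amacrine and horizontal cell replicate 1. The dihydrofolate reductase gene dhfr pointed the other way, at 342 against 173 CPM, with no overlap and no call (adjusted p = 0.11).

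The same photoreceptor libraries were high in S phase genes against the ganglion cell gate and against the amacrine and horizontal cell gate. Of the 50 members, 12 were called higher in photoreceptors than in ganglion cells (0.838% of all genes tested; median log2 fold change 1.0). Against amacrine and horizontal cells 32 were (4.77%; median 1.39), and none was lower in either. Without amacrine and horizontal cell replicate 1, 25 were called against ganglion cells. For pcna the means were 1485 ± 365 CPM in ganglion cells and 917 ± 265 CPM in the amacrine and horizontal gate (SD, n = 5 each). These lay 0.98 and 1.68 below photoreceptors on the log2 scale (adjusted p = 0.0067 and 1.3e-05). The list summed to 12242 to 14975 CPM in photoreceptors, 14150.2 to 16267 in progenitors, 6568 to 8409 in ganglion cells and 4002 to 6071 in amacrine and horizontal cells. The gene rrm1 was an exception against ganglion cells, which averaged 601 CPM against 582 in photoreceptors (adjusted p = 1).

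Of 53 tested mitotic genes, 1 was called higher and 1 lower, shares near the 3.14% and 2.05% of all genes tested, with 35 negative log2 fold changes and a median of -0.27. The proliferation antigen gene mki67 (ENSDARG00000091150) was at 421, 308, 396, 523 and 528 CPM in photoreceptors and 517, 487, 459.9, 526 and 716 CPM in progenitors, with overlap (log2 fold change -0.31 ± 0.19, adjusted p = 0.48). The cyclin B gene ccnb1 was at 175 ± 48.6 and 256 ± 33.4 CPM (SD, n = 5 each; adjusted p = 0.13) and was called lower when photoreceptor replicate 5 was left out (log2 fold change -0.73, adjusted p 0.029). The member called higher was the kinetochore gene spc24 (log2 fold change 0.66 ± 0.19, adjusted p = 0.043), lost when any 1 of amacrine and horizontal cell replicate 2, photoreceptor replicates 2, 3 and 5, progenitor replicates 1, 2, 3 and 4 and ganglion cell replicates 3, 4 and 5 was left out (log2 fold change 0.55 to 0.68, adjusted p 0.0509 to 0.12). The other was the mitotic entry phosphatase gene cdc25b (log2 fold change -1.0 ± 0.25, adjusted p = 0.019), lost when any 1 of photoreceptor replicates 2, 3 and 5 was left out (log2 fold change -0.97 to -0.87, adjusted p 0.0517 to 0.057). Lower calls numbered 3 without photoreceptor replicate 4 and 2 without amacrine and horizontal cell replicate 1. Against ganglion cells 1 member was higher in photoreceptors and 3 lower (0.838% and 1.27% of all genes). There 37 log2 fold changes were negative, with a median of -0.33. Against amacrine and horizontal cells 8 were higher and none lower (4.77% and 3.94%, median 0.46). The list summed to 5913 to 7701 CPM in photoreceptors and 6930 to 8820 CPM in progenitors. Ganglion cells held 7434 to 9281 CPM and amacrine and horizontal cells 4783 to 5398 CPM.

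Genes of cell cycle entry and exit were called in both directions. Of 36 tested G1, E2F, RB, CDK inhibitor and antiproliferative genes, 3 rose and 1 fell (3.14% and 2.05% of all genes tested did; median 0.10). The antiproliferative gene btg1 (ENSDARG00000027249) was at 999.8, 1121, 1342, 1598 and 1023 CPM in photoreceptors and 249, 222, 224, 475 and 313 CPM in progenitors (log2 fold change 2.04 ± 0.25, adjusted p = 1.9e-05). Its relative btg3 rose from 106 to 491 CPM (log2 fold change 2.22 ± 0.25, adjusted p = 9.1e-06). The G1 cyclin gene ccnd1 (ENSDARG00000101637), which in general drives entry into S phase, was at 3181, 2910.4, 2705, 2753 and 2205 CPM against 1576, 1410.4, 1468, 1672 and 1561 CPM (log2 fold change 0.84 ± 0.17, adjusted p = 0.0034). All 3 kept the groups apart. Photoreceptors also exceeded ganglion cells in 2 members, btg3 (log2 fold change 2.25, adjusted p = 2.3e-05) and ccnd1 (1.15, adjusted p = 0.00041). They were lower in 2 others, where 0.838% and 1.27% of all genes were called, and btg1 was not called there. Photoreceptors exceeded amacrine and horizontal cells in 8 members, btg3 and ccnd1 among them (2.42 and 1.72, adjusted p = 4.8e-06 and 2.4e-06). They were lower in 1 (4.77% and 3.94% of all genes). The kinase gene cdk6 was the member that fell (2.97 against 13.3 CPM, log2 fold change -2.16 ± 0.62, adjusted p = 0.048), and the call was lost when any 1 of amacrine and horizontal cell replicate 4, photoreceptor replicates 1, 3, 4 and 5, the 5 progenitor libraries and the 5 ganglion cell libraries was left out (log2 fold change -2.23 to -1.92, adjusted p 0.0504 to 0.12).

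**Figure D4:**
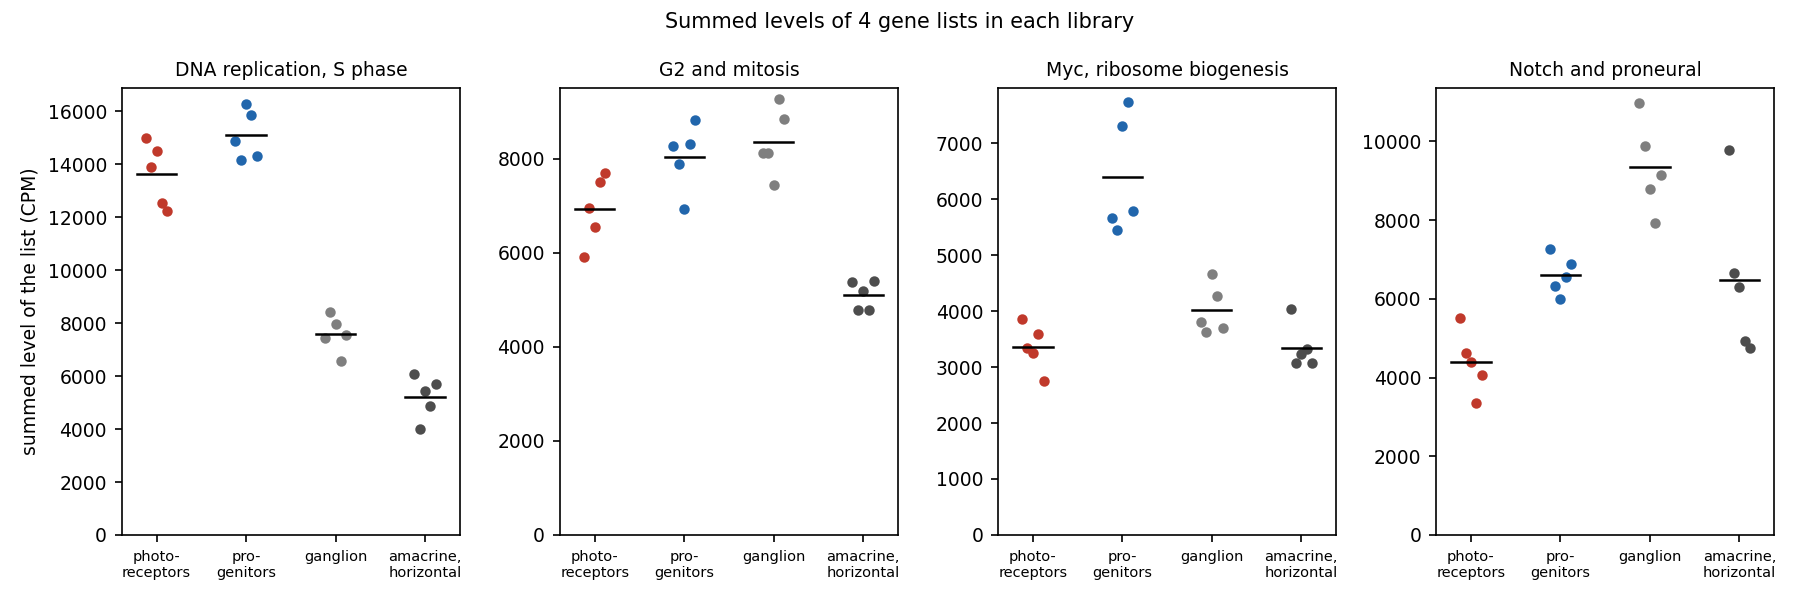
Summed levels in CPM (vertical axes, from 0) of the S phase, mitosis, Myc and ribosome biogenesis, and Notch and proneural lists in each library of the 4 sorted populations, with group means as bars. Photoreceptors lie near progenitors for S phase genes (12242 to 14975 against 14150.2 to 16267 CPM) and below them for the Myc list (2743 to 3858 against 5439.7 to 7736 CPM) and the Notch list (3349 to 5501 against 5992 to 7253 CPM). For the Notch list ganglion cells lie above progenitors, at 7930 to 10975 CPM.

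The 13 protein genes of the mitochondrial genome gave no call in either direction with edgeR, nor with DESeq2 or voom, and 12 of them had negative log2 fold changes (median -0.27). Their sum was 48947, 17433, 42898, 25797 and 45076 CPM in photoreceptors and 45594, 40781, 44433, 40393 and 50256 CPM in progenitors, with photoreceptor replicates 2 and 4 below all other libraries of the pair.

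The largest fold differences towards progenitors came from genes outside the retinal lists. A peripheral myelin protein gene, pmp22a (ENSDARG00000105223, chromosome 3 from 50861176 to 50865079), had 0 counts in every photoreceptor library and 131, 132, 119.3, 56.9 and 36.6 CPM in progenitors, at least 789-fold higher there (adjusted p = 0.00031). Next were the keratin gene krt18b, the matrix genes FMOD (fibromodulin), CTHRC1 and col9a1b, the protease gene PRSS35, the homeobox gene EMX2, the surface antigen genes cd34 and cd248b, and mab21l2, a gene of the developing eye. Of these 10 genes, 8 had no photoreceptor read, and progenitor means ran from 13.9 to 95.1 CPM. The call of krt18b, at least 298-fold higher in progenitors, was lost when any 1 of photoreceptor replicates 2, 3, 4 and 5 was left out (adjusted p 0.056 to 0.061). By level per length, the lower genes were the thioredoxin gene TXN (772 against 1565 CPM per kilobase), the nucleoside diphosphate kinase gene NME1 (302 against 861), the translation factor gene EIF5A2 (307 against 628), hes6, the thymosin gene tmsb4x, npm1a, the nuclear transport gene ranbp1 (139 against 359), the ATP synthase inhibitor gene atp5if1a, ldhba and ncl. Of these, tmsb4x (log2 fold change -1.05 ± 0.29, adjusted p = 0.037) lost its call when any 1 of photoreceptor replicates 2, 3 and 4 and progenitor replicates 2 and 5 was left out (log2 fold change -1.08 to -0.76, adjusted p 0.0541 to 0.13).

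Markers of mesenchyme and neural crest moved with the progenitor gate. Of 25 tested (34 found), 11 were called lower in photoreceptors (2.05% of all genes tested were) and none higher, and 24 had negative log2 fold changes (median -6.24, or -6.06 with 2 members at 0 in photoreceptors set at their bounds). Members that passed the filter through progenitor libraries alone had to come out lower, so these counts are a description. The collagen gene col1a1a (ENSDARG00000012405) was at 60.0, 55.0, 37.2, 1.98 and 31.8 CPM in progenitors and at most 0.0667 CPM in photoreceptors, 979.5-fold (95% exact counting interval 419 to 3018) higher in progenitors (adjusted p = 2e-05). The periocular mesenchyme factor gene foxc1a was present in all 5 progenitor libraries, at 22.5, 6.46, 6.50, 35.8 and 36.2 CPM. From pooled counts it was 2627-fold (95% exact counting interval 471 to 103814) higher there than in photoreceptors, which had 1 read in replicate 1 and none elsewhere. The neural crest gene twist1a was not counted in any photoreceptor library, and progenitors were at least 71.6-fold higher (adjusted p = 0.0095). The transition factor gene snai1a was 477-fold (95% exact counting interval 186 to 1753) higher in progenitors. Other called members were col5a1, pdgfra and col1a2 (log2 fold change -7.74 to -6.24), and tgfbi, lum and sparc, whose calls were lost in turn. That of tgfbi went when any 1 of photoreceptor replicates 1, 3, 4 and 5 and progenitor replicates 2, 3, 4 and 5 was left out (log2 fold change -6.84 to -6.42, adjusted p 0.057 to 0.087). That of lum went when any 1 of photoreceptor replicate 3 and progenitor replicate 2 was left out (log2 fold change -5.91 to -5.55, adjusted p 0.0537 to 0.058). That of sparc went when any 1 of photoreceptor replicates 2, 3 and 4 and progenitor replicates 1 and 2 was left out (log2 fold change -4.74 to -4.28, adjusted p 0.0526 to 0.082). The part of mesenchymal RNA in the genes called lower was not tested, and the list was high in every progenitor library, so no progenitor library without it could be set beside the others. With progenitor replicates 3 and 4 only, 4 members were called lower, and with photoreceptor replicates 2, 3 and 4 only, 7.

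Blood genes were uneven among the progenitor libraries. The embryonic globin gene hbae1.1 (ENSDARG00000089475) was at 1566, 1947, 0.375, 0.388 and 3393 CPM in progenitors and 0.647, 0.601, 0, 0.205 and 0 CPM in photoreceptors (log2 fold change -12.20 ± 3.20, adjusted p = 0.027), so that progenitor replicates 3 and 4 lay within the photoreceptor range. The call was lost when any 1 of the 5 photoreceptor libraries was left out (log2 fold change -12.71 to -11.88, adjusted p 0.0535 to 0.074). That of hbae3 was lost when any 1 of the 5 photoreceptor libraries was left out (log2 fold change -13.46 to -12.64, adjusted p 0.0516 to 0.061). The anion exchanger gene slc4a1a lost its call when any 1 of the 5 photoreceptor libraries, progenitor replicates 1 and 2 and ganglion cell replicate 4 was left out (adjusted p 0.062 to 0.09). Of 10 tested endothelium and blood genes, 3 were called lower (2.05% of all genes tested were), all of them red cell genes (hbae1.1, hbae3 and slc4a1a). No member was called without any 1 of photoreceptor replicates 1, 3, 4 and 5, and 1 without photoreceptor replicate 2. With progenitor replicates 3 and 4 only, no member was called. Pigment genes summed to 75.5, 488, 29.9, 7.11 and 13.9 CPM in progenitors and to 2.09 to 13.6 CPM in photoreceptors, highest in progenitor replicate 2. Among 8 members none was called by edgeR, 2 by DESeq2 and 1 by voom, and 1 by edgeR without photoreceptor replicate 3 or ganglion cell replicate 1. In the lens and skin list the keratin gene krt8 alone was called lower among 7, where 2.05% of all genes tested were. Its call (log2 fold change -7.03 ± 1.99, adjusted p = 0.042) was lost when any 1 of photoreceptor replicates 1, 2, 4 and 5 and the 5 progenitor libraries was left out (log2 fold change -7.20 to -6.71, adjusted p 0.057 to 0.092). Leaving out 1 library gave 0 to 3 lens and skin calls, with 3 without amacrine and horizontal cell replicate 1, 2 without any other of that group, without photoreceptor replicate 3 or without ganglion cell replicates 2 to 5 in turn, and 1 or 0 otherwise.

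Markers of the other retinal neurons were mixed. Of 19 tested ganglion cell genes none was called (3 higher and 1 lower by DESeq2, 2 higher and none lower by voom). With edgeR 2 were higher without progenitor replicate 1 and 1 without progenitor replicate 2 or photoreceptor replicate 3 or 4. Their sum was 1299, 717, 294, 278 and 956 CPM in photoreceptors against 387, 202, 413, 431 and 204 CPM in progenitors, with overlap. Of 22 amacrine and horizontal genes, 3 were lower in photoreceptors, where 2.05% of all genes tested were. One was bhlhe22, from 230.3 to 38.5 CPM (log2 fold change -2.58 ± 0.38, adjusted p = 0.00019). The others were the horizontal cell factor onecut1, from 83.7 to 14.8 CPM (log2 fold change -2.50 ± 0.52, adjusted p = 0.0049), and lhx1a at 3.74 against 0.0183 CPM (adjusted p = 0.0081), and 1 member was called higher without progenitor replicate 3 or 5. The glutamine synthetase gene glulb, a marker of Muller glia, was lower in photoreceptors in every library (log2 fold change -1.40 ± 0.22, adjusted p = 0.00033). It was the only call among 16 bipolar and Muller genes, beside the 2.05% of all genes tested that were called lower. The bipolar gene vsx1 stood at 364 ± 53.4 and 228 ± 84.3 CPM (SD, n = 5 each; adjusted p = 0.14) and was called higher when progenitor replicate 4 was left out (log2 fold change 0.91, adjusted p 0.033).

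**Figure D5:**
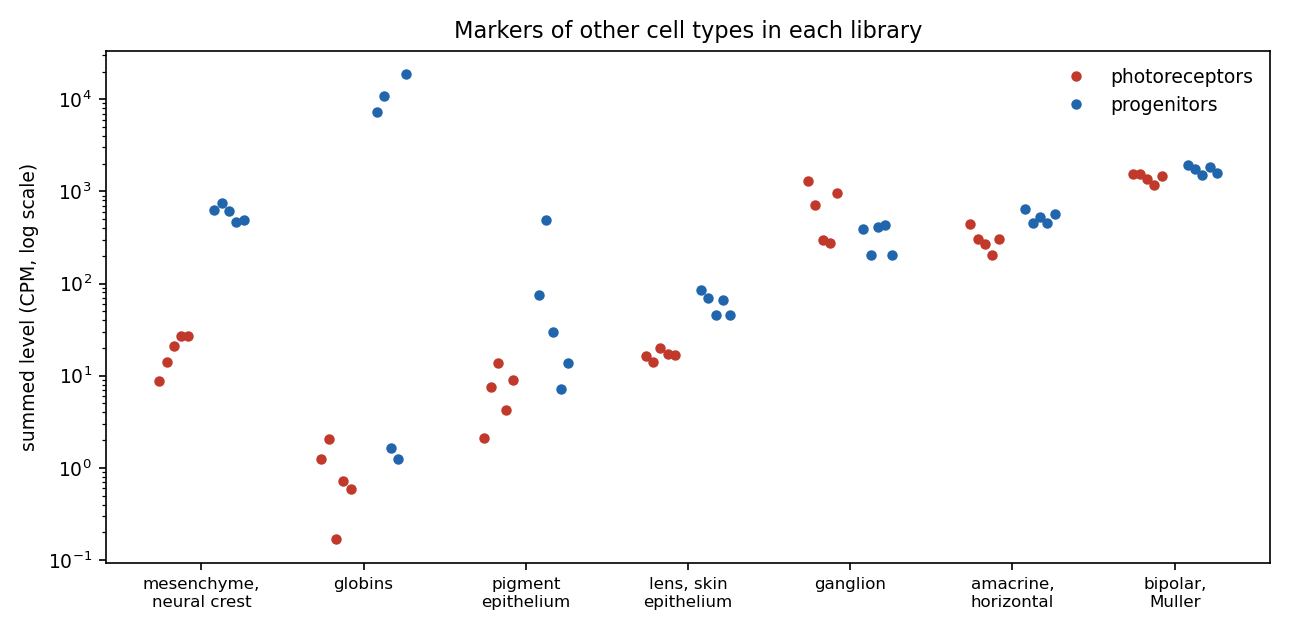
Summed levels (CPM, log scale) of marker lists of other cell types in each photoreceptor (red) and progenitor (blue) library. Mesenchyme genes separate the groups completely (8.86 to 27.1 against 461 to 749.5 CPM), globin genes are high in 3 of the 5 progenitor libraries, and ganglion cell genes overlap.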

How the data were processed

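Reads from 20 SmartSeq-2 libraries of polyadenylated RNA, sequenced on a NextSeq500, were analysed as the deposited table of raw counts per gene. The authors made these counts with bcl2fastq 2.19.1, GSNAP and featureCounts 1.6.3 per the submitters' processing notes, on GRCz11 with Ensembl release 95 annotation, a mapping quality of at least 1 and strand ignored per the file headers, so overlapping and antisense genes cannot be told apart. All 20 count columns matched a sample. Of 32520 Ensembl genes, 29201 had a symbol in a table of gene names, and 628 of 681 listed symbols matched 1 gene. The others were not analysed here, and some genes are not reported here. Of all genes, 6136 shared a symbol with another, and reads of near-identical paralogs may be split between them. The 92 spike-in entries, at most 1.94e-05% of a library, were left out.

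Counts were tested with edgeR 4.0.16 (R 4.3.3, limma 3.58.1): filterByExpr (13838 genes), TMM scaling, a quasi-likelihood fit to all 4 populations, and Benjamini-Hochberg adjustment over all genes, with calls at an adjusted p under 0.05. The script was tested on simulated counts, where it found part of the planted changes. Standard errors are the log2 fold change over the square root of F. CPM used TMM-scaled totals. A gene at 0 in 1 population was set at a floor of 3 counts per library, and intervals at 95% are exact (Clopper-Pearson, conditional on the total, on counts pooled over each group and scaled by pooled library sizes) and cover counting error only, since reads carry no molecular identifiers. The text names, among called genes with a symbol and no overlap, the 10 with the largest change at a mean of at least 10 CPM and the 10 highest per kilobase past a log2 change of 1, in each direction, with genes of the lists. Gene lists and members were chosen with earlier results of these data known. Alternatives were the replicate block, the 10 libraries alone, RLE factors, mitochondrial genes left out, no filter, a minimum count of 50, track ranges, each library left out, voom and DESeq2 1.42.0. After seeing the data, fits without the globin-bearing progenitor libraries and without photoreceptor replicates 1 and 5 were added. Tables and plots used Python 3.11.15 with pandas 2.3.3, scipy 1.17.1 and matplotlib 3.10.9.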

Additional observations from a re-analysis of the deposited data

Results flagged for a closer look

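In each of 81 groups of 5 libraries, made up of the genes shown library by library, the gap between the most extreme library and its neighbour was divided by the range of the group. It passed the 5-sample critical value of 0.71 in 13 groups. For normally distributed values chance flags about 1 in 20 groups, and whether these CPM values are so distributed was not tested. That rate does not apply to 4 of the 13, foxc1a in photoreceptors and gngt2a, rcvrna and snap25b in progenitors. In each of them all but 1 library had no reads, and the ratio was 1 by construction.

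In photoreceptors the library that stood apart was replicate 1 in all 6 cases. It was low in neurod1, at 1363 CPM, and high in the neuronal gene elavl3 at 245 CPM, the progenitor gene rx1 at 143 CPM, myclb at 299 CPM and mycn at 21.4 CPM. In foxc1a it held 0.0498 CPM, a single read, where the other 4 had none. The same library had the highest sum of ganglion cell genes in its group (1299 CPM), and the part of other cells in these values was not tested.

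In progenitors, replicate 1 stood apart in 3 photoreceptor and synaptic genes, with rcvrna at 0.746 CPM, snap25b at 1.78 CPM and stxbp1b at 1.78 CPM. Replicate 2 did so in gngt2a at 1.21 CPM, replicate 5 in tulp1a at 0.932 CPM and mki67 at 716 CPM, and replicate 3 in mycn at 346 CPM. All 5 photoreceptor and synaptic values lay below every photoreceptor library.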

How the results depend on the processing

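The 718 calls (434 higher, 284 lower) became 36 (13 and 23) in the lower track range alone, 1233 with 870 higher in the upper range, 1295 (795 and 500) with voom, 1376 (830 and 546) with DESeq2, 317 (204 and 113) with progenitor replicates 3 and 4 only, and 472 with 167 lower with photoreceptor replicates 2, 3 and 4 only, the last 2 chosen after seeing the data. In the 10 libraries alone 458 genes were lower. Leaving out 1 library gave 527 to 1127 calls, 331 to 662 higher and 194 to 465 lower, with the highest counts, 1127, 662 and 465, without amacrine and horizontal cell replicate 1. Every call that could be fitted kept its sign under each alternative other than those 2 subsets, where 715 and 716 of 718 did. The track ranges and added fits hold fewer libraries than the main fit. Calls were fewer in the lower range (36) and the added fits (317 and 472), and more in the upper range (1233). The causes of these shifts, the number of libraries among them, were not tested.

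Same-numbered photoreceptor and progenitor libraries deviated together with correlations of -0.056 to 0.072, so the number was not taken as a pairing, and the replicate block gave 745 calls, of which 618 were among the 718.

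Values that turned in sign were not called in any such fit. For rorb they were 0.24 (lower track range), 0.03 (without photoreceptor replicate 5) and 0.23 (without progenitor replicate 4), with -0.28 to 0.23 over all fits leaving out 1 library. For gnb1b they were -0.068 (upper range), -0.031 (without photoreceptor replicate 4, with 0.10 as the highest of such fits) and -0.055 (progenitor replicates 3 and 4 only). For elavl3 they were -0.93 (10 libraries with the block), -0.12 (upper range), -0.99 (voom), -2.03 (photoreceptor replicates 2, 3 and 4 only) and -0.87 to 1.49 with 1 library left out. For rx2 the value was -0.14 (lower range), for pcna 0.0081 (upper range) and for slc4a1a 2.41 (progenitor replicates 3 and 4 only). For rrm1 against ganglion cells they were 0.017 with RLE and with DESeq2, and -0.11 to 0.0083 with 1 library left out.

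Of 113 called gene results, 6 kept their call under every alternative, and the lower track range, with 2 libraries a group, lost 99. At these depths 1 count is near the level of several progenitor values below 0.1 CPM, so folds of such genes rest on single reads.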

Other observations

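Some gene families outside the lists were examined after their members had been seen among the called genes, so their counts are a description. Genes of ciliary and lipidated-cargo trafficking, which carries membrane proteins to the outer segment, were called higher in photoreceptors in 8 of 21 tested members and lower in none. Of all genes tested, 3.14% were called higher and 2.05% lower. The small GTPase gene arl3l1 averaged 467 ± 196 CPM in photoreceptors and 1.95 ± 4.21 CPM in progenitors (SD, n = 5 each; edgeR log2 fold change 7.92, adjusted p = 0.0051). The cargo carrier gene unc119a2 averaged 223 against 26.9 CPM (log2 fold change 3.06, adjusted p = 1.1e-05), RP2, the gene of an ARL3 GTPase-activating protein, 97.5 against 8.30 CPM (3.55, adjusted p = 0.011), and the prenyl-binding protein gene PDE6D 154 against 52.1 CPM (1.57, adjusted p = 0.00037). All 4 kept their calls whichever library was left out. The called members BBS5 and ARL2BP lost theirs in 4 and 6 of 20 such fits.

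Genes of the vacuolar proton pump, which acidifies vesicles, were called higher in 6 of 26 tested members (3.14% of all genes tested) and lower in none. ATP6V0C averaged 244 ± 17.4 against 15.9 ± 9.10 CPM (SD, n = 5 each; log2 fold change 3.94, adjusted p = 2e-07) and atpv0e2 323 against 16.3 CPM (4.31, adjusted p = 7.1e-08). The ER membrane protein complex, which inserts multi-pass membrane proteins, had 4 of 11 members called higher (3.14% of all genes tested). EMC4 was at 42.4 against 18.4 CPM (1.2, adjusted p = 0.015), a call lost without photoreceptor replicate 2. Of the other called complex genes, EMC2 lost its call in 1, EMC3 in 2 and MMGT1 in 7 of 20 fits with 1 library left out. Pump genes summed to 1473 to 1958 CPM in photoreceptors and 511 to 710 CPM in progenitors. Ganglion cells held 1002 to 1196 CPM of them, and amacrine and horizontal cells 1223 to 1589 CPM. The complex summed to 1421 to 2132, 929 to 1069, 1410 to 1675 and 1288 to 1869 CPM in that order. Photoreceptors exceeded ganglion cells in 2 pump genes and no complex gene (0.838% of all genes). They exceeded amacrine and horizontal cells in 2 of each (4.77%).

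On the progenitor side, nucleotide synthesis genes were called lower in photoreceptors in 4 of 17 tested members and higher in 1, prps1b (2.05% and 3.14% of all genes tested). CAD, which starts pyrimidine synthesis, averaged 57.6 ± 11.9 against 217 ± 89.6 CPM (SD, n = 5 each; log2 fold change -1.91, adjusted p = 0.00083), and CTPS1 168 against 322 CPM (-0.94, adjusted p = 0.0049). Photoreceptors were not low in nucleotide synthesis genes against the ganglion cell gate or the amacrine and horizontal cell gate. They exceeded ganglion cells in 2 members (0.838% of all genes, median log2 fold change 0.50) and amacrine and horizontal cells in 6 (4.77%, median 1.05). None was called lower in either comparison. Genes of the cytosolic aminoacyl-tRNA synthetases and their complex were called lower than in progenitors in 4 of 19 (2.05% of all genes tested). The 4 were KARS1, AARS1, RARS1 and AIMP2, the last a scaffold gene of the complex and not a synthetase gene. Each of the 4 lost its call in 3 to 8 of 20 fits with 1 library left out. Mesenchyme genes were also high in every progenitor library, and their part in these values was not tested.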
